A study of Oryctolagus cuniculus with 36 samples.

Results

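Livers of rabbits labelled FA were compared with livers of rabbits labelled FK in a series on hereditary tyrosinemia type I, in which CRISPR/Cas9 was used to correct the gene in newborn animals. The comparison took in 24 of the 36 libraries of the series, 12 FA and 12 FK, chosen by their titles. The other 12 libraries are titled WT and are used here only to place a level. Titles divide each group into 3 numbered sets of 4 libraries, and the 4 libraries of a set were summed, which gave 3 FA sets against 3 FK sets. The labels do not spell out FA or FK, do not give the age or dose of any animal, and describe all 36 samples, WT included, as the tyrosinemia model. They state that the rabbits were treated and that livers were dissociated with trypsin before RNA extraction, but not which agent each group received. They do not say that sets or libraries came from separate animals, and the p-values therefore rest on the spread between sets alone, which may be technical.

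In hereditary tyrosinemia type I the enzyme fumarylacetoacetate hydrolase (FAH) is lost. It splits fumarylacetoacetate at the end of tyrosine breakdown in the hepatocyte. Without it the electrophilic intermediates maleylacetoacetate and fumarylacetoacetate build up, and succinylacetone made from them inhibits heme synthesis. Hepatocytes that regain FAH have a growth advantage in the diseased liver and can repopulate it.

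Totals of the sets ran from 62.4 to 78.6 M counts for FA and 53.2 to 61.9 M for FK. Levels are given as CPM, counts per M counts after TMM scaling, in the order of sets 1, 2 and 3. Differences are FA minus FK on the log2 scale with their standard error (SE) from the fit of all 9 sets, 3 per group. FK set 3 stood apart from the other FK sets. Across 14939 genes its log2(CPM + 1) values correlated at 0.974 to 0.980 with the FA sets, against 0.883 with FK set 1 and 0.850 with FK set 2. Its FAH level lay between those of the other FK sets. Whether the set matches its label was not tested, and every FK mean and difference below includes it unless stated. Markers of erythroid cells, neutrophils, and blood progenitors and megakaryocytes followed the same division. Kupffer cell and macrophage markers did not, at 1310, 802 and 925 CPM in FK. The summed CPM of erythroid markers was 803, 953 and 403 in FA and 7227, 17130 and 656 in FK. Neutrophil markers summed to 19.4 to 41.7 CPM in FA and to 1196, 2062 and 28.1 in FK, and markers of blood progenitors and megakaryocytes to 5.41 to 8.35 CPM in FA and 105, 93.9 and 5.73 in FK. Of 19 erythroid markers tested, 1 (CA1) was higher in FK without overlap with all sets and 18 were called higher in FK by edgeR without FK set 3. Of 9 neutrophil markers these numbers were 0 and 8, and of 10 progenitor and megakaryocyte markers 2 and 10. The set left out is the FK set low in these markers, so these calls restate the division and give it no further support. The alpha globin gene HBA1 was not analysed here. Hepatocyte markers summed to between 187100 and 298400 CPM in the 6 sets, so the label liver matched its markers, and the groups overlapped. In bulk RNA, fewer cells of a type and less RNA per cell cannot be told apart. The part of cells other than hepatocytes in the differences between FA and FK was not tested.

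**Figure D1:**
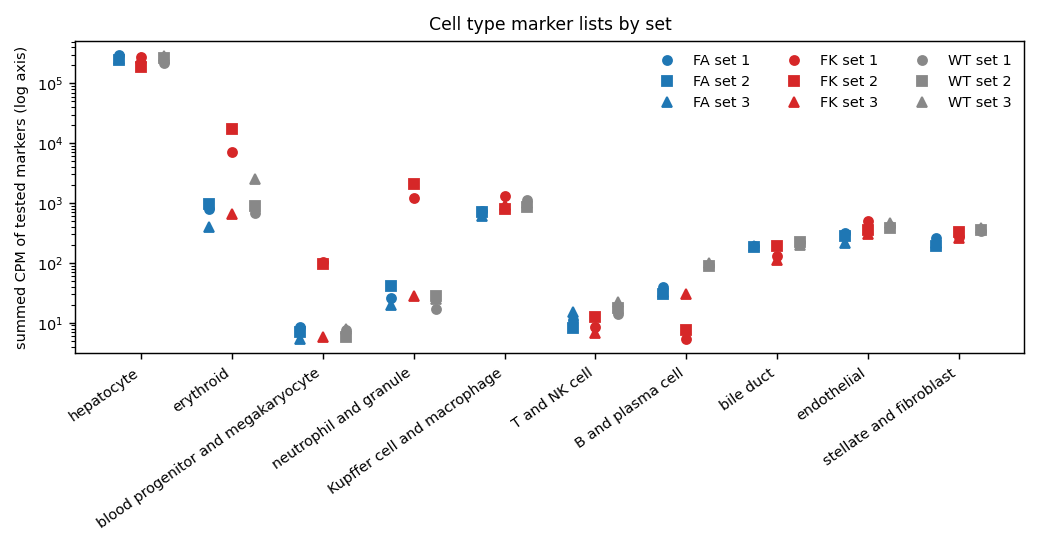
Summed CPM of the marker genes of each cell type on a log axis, 1 point per FA, FK or WT set. FK sets 1 and 2 lie far above FA for erythroid, neutrophil and blood progenitor markers, whereas FK set 3, at 656 CPM for the erythroid list, lies within the FA range of 403 to 953.

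Because of this division, a gene was described where all 3 FK sets lay on the same side of all 3 FA sets. FA lay above FK without overlap in 1231 genes (8.24% of 14939) and FK above FA in 1343 (8.99%). Their median log2 difference was 0.83 and -1.06, against -0.02 over all genes. The shares 8.24% and 8.99% are the background for every list count below. None of the 14939 genes passed edgeR's quasi-likelihood test at a Benjamini-Hochberg adjusted p of 0.05 (0%), and the smallest adjusted p was 0.115. At an unadjusted p of 0.05 the same test marked 3275 genes, 1055 higher in FA and 2220 higher in FK, and DESeq2 called 1695. No gene named here therefore passed the main test, and all are described by their values. Without FK set 3, edgeR called 2531 genes higher in FA (16.4% of 15453) and 2793 higher in FK (18.1%).

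FK set 3 was the FK set nearest to FA in 954 of the 1231 genes that were higher in FA and in 1001 of the 1343 that were higher in FK, and in 9354 of all 14939. In the genes higher in FA, the median distance from the FA mean on log2(CPM + 1) was -0.82 for FK set 1, -0.63 for FK set 2 and -0.34 for FK set 3. In the genes higher in FK the same medians were 0.78, 0.70 and 0.31. Thus the 2574 genes that separated the groups differed in FK set 3 by a median of 45.5% and 41.9% of the distance seen in the other FK sets. The rule that chose them puts FK set 3 on the side of the other FK sets, so its direction was fixed in advance. Over all 14939 genes its median distance from the FA mean was 0.004. When the 24 libraries were compared singly, all 12 of FA lay above all 12 of FK in 230 genes (1.54%) and below them in 124 (0.83%).

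FAH itself was low in both groups. Its level was 25.8, 24.7 and 19.6 CPM in FA and 16.4, 11.8 and 14.6 CPM in FK, against 237, 271 and 218 CPM in WT. All FA sets lay above all FK sets, and the group means were 9.66% and 5.90% of the WT mean. The difference was 0.71 (SE 0.21, 95% interval 0.25 to 1.18), 1.64-fold, with an edgeR adjusted p of 0.119 and an exact two-sided permutation p of 0.1, the smallest that 3 against 3 sets allow. Single libraries held 256 to 550 FAH counts in FA and 120 to 290 in FK. They met at the edge, where the lowest library of FA set 3 had 17.67 CPM and the highest of FK set 1 had 17.72. Without FK set 3 the difference was 0.75 with an edgeR adjusted p of 0.0336. That set is singled out for its values over all genes, and its FAH level lay between those of the other FK sets. The lower p therefore gives the FAH difference no further support. The values do not tell corrected from uncorrected FAH transcripts, since gene-level counts carry no sequence.

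Most of the other genes of the pathway followed the same order. Of the 8 genes of tyrosine breakdown and its cofactor cycle, 6 were higher in FA without overlap, FAH among them, and 0 in FK. That is 75%, beside 8.24% of all genes. The median difference of the 8 genes was 0.88. GSTZ1, the maleylacetoacetate isomerase one step before FAH, stood at 461, 355 and 507 CPM in FA and 135, 249 and 215 in FK, a difference of 1.14 (SE 0.31). Here FK set 3 lay between the other FK sets, and all 12 FA libraries lay above all 12 FK libraries. HGD, the homogentisate dioxygenase whose product GSTZ1 converts, stood at 434, 455 and 439 CPM in FA and 100, 176 and 374 in FK, a difference of 1.03 (SE 0.43). Its FK set 3 was close to the FA sets. HPD, the dioxygenase that nitisinone blocks, stood at 1534, 1175 and 1054 CPM in FA and 592, 616 and 940.3 in FK (0.81, SE 0.33), and WT lay above both, at 2167 to 2503.

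The cofactor tetrahydrobiopterin is restored by PCBD1 and QDPR, and both were higher in FA in every library. PCBD1 stood at 214, 168 and 159 CPM in FA and 56.6, 79.8 and 121 in FK (1.08, SE 0.30). QDPR stood at 203, 190.3 and 183 CPM in FA and 64.7, 100.5 and 134 in FK (0.95, SE 0.28). TAT, the tyrosine transaminase, did not share that order. It stood at 495, 376 and 497 CPM in FA and at 1464, 1069 and 478 in FK, so FK sets 1 and 2 were high and FK set 3 was inside the FA range. Over the 8 genes the median distance from FA was -1.31, -0.92 and -0.46 on log2(CPM + 1) for FK sets 1, 2 and 3.

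**Figure D2:**
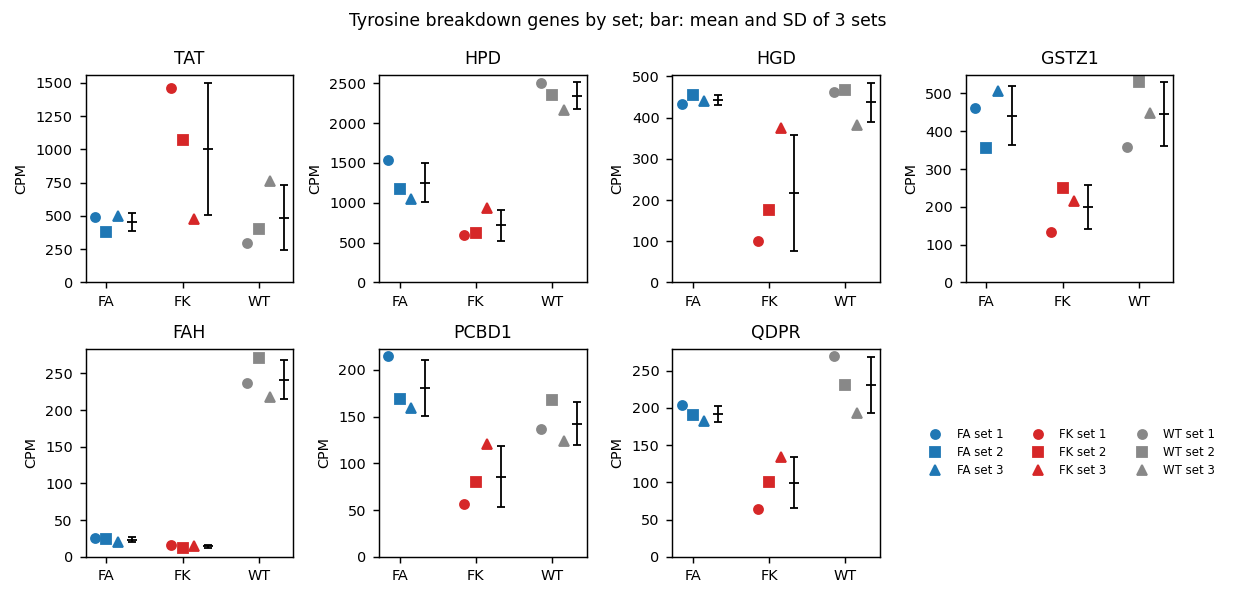
CPM, on axes from 0, of 7 genes of tyrosine breakdown and its cofactor cycle in each FA, FK and WT set, 1 point per set, with bars for the mean and SD of 3 sets. FA lies above FK without overlap for FAH, HPD, HGD, GSTZ1, PCBD1 and QDPR, and the groups overlap for TAT; FAH in WT, at 218 to 271 CPM, lies far above both.

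Genes of sterol synthesis had the highest share after tyrosine breakdown among the 36 gene lists. Hepatocytes make cholesterol from acetyl-CoA by way of mevalonate, and the transcription factor SREBP2 raises most enzymes of the route when sterols are scarce. Of 22 tested genes of the list, 13 were higher in FA without overlap (59.1%, beside 8.24% of all genes) and 0 were higher in FK, with a median difference of 1.06. The median distance of FK set 3 from FA on log2(CPM + 1) was -0.96, beside -0.87 for FK set 2 and -1.50 for FK set 1.

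MSMO1, a methylsterol monooxygenase of the route, stood at 846, 1215 and 1335 CPM in FA and 150.5, 160.4 and 382 in FK. The difference was 2.29 (SE 0.45), 4.90-fold, and all 12 FA libraries were above all 12 FK libraries. TM7SF2, a sterol reductase, stood at 226, 265 and 149.6 CPM in FA and 30.1, 36.8 and 99.7 in FK (1.94, SE 0.52). IDI1, which isomerises isopentenyl diphosphate, stood at 50.2, 94.0 and 111 CPM in FA and 18.4, 25.3 and 33.2 in FK (1.73, SE 0.39). In each of these the 3 FK sets were the lowest of the 6. Among other enzymes of the route, LSS, which closes the sterol rings, stood at 78.6, 179 and 128 CPM in FA and 27.3, 48.1 and 58.2 in FK (1.53, SE 0.46). NSDHL stood at 51.3, 79.9 and 104 CPM in FA and 24.2, 33.7 and 35.9 in FK (1.33, SE 0.33). FDFT1, the squalene synthase, stood at 180.3, 194 and 219.7 CPM in FA and 57.1, 79.9 and 118 in FK (1.22, SE 0.31). Libraries did not overlap for IDI1, TM7SF2, NSDHL and FDFT1, and overlapped for LSS.

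EBP, FDPS, MVK, SC5D and STARD4 were also higher in FA without overlap. SQLE and INSIG1, chosen after their values were seen, overlapped. SQLE had its lowest FK value in set 3, 18.9 CPM, and its lowest FA value, 27, inside the FK range. INSIG1, which holds SREBP in the endoplasmic reticulum, stood at 1410 to 1825 CPM in FA and at 425, 615 and 1736 in FK.

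**Figure D3:**
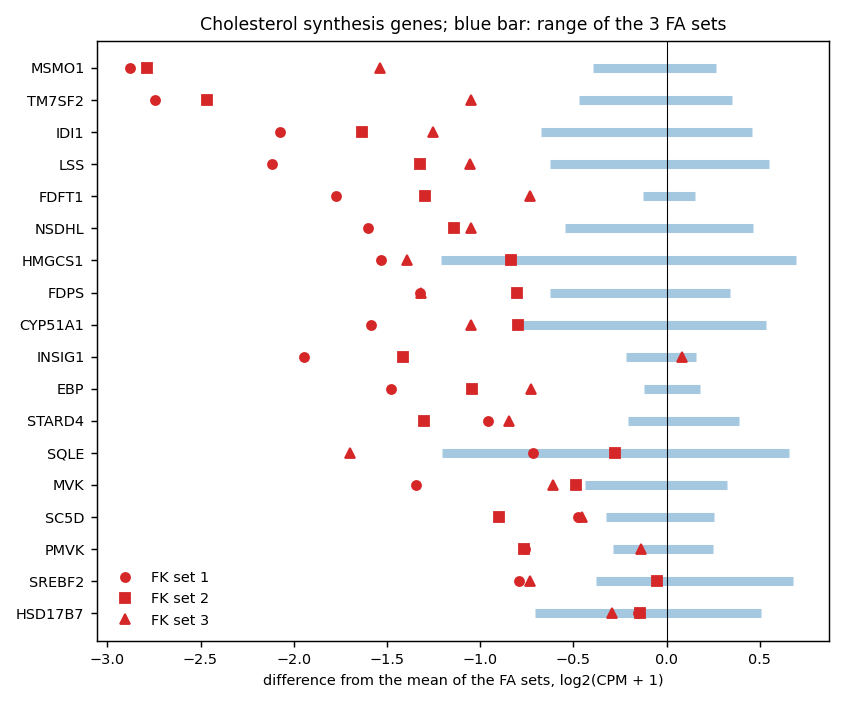
Difference of each FK set from the mean of the FA sets on log2(CPM + 1) for 18 tested genes of the cholesterol synthesis list, 1 point per FK set, with blue bars for the range of the FA sets and the line at 0 for the FA mean. Most genes have all FK points left of the bar, while SQLE and INSIG1 have points inside it.

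Of 15 genes that make fatty acids and glycerides, 5 were higher in FA without overlap (33.3%) and 0 higher in FK, at a median difference of 0.84. Over this list the median distance from FA was -0.61, -0.48 and -0.63 for FK sets 1, 2 and 3. For ACACB, SREBF1, DGAT2 and GPAM, described below, FK set 3 was nonetheless the FK set nearest to FA. ACSS2, the cytosolic acetyl-CoA synthetase that feeds lipid synthesis from acetate, had the widest gap between nearest sets among genes higher in FA with a symbol and at least 10 CPM. Its level stood at 819, 471 and 951 CPM in FA and 66.5, 109 and 181 in FK, 6.28-fold (2.65, SE 0.54). ACACB, the acetyl-CoA carboxylase of the mitochondrial surface, stood at 317, 368 and 547 CPM in FA and 63.4, 133 and 177 in FK (1.72, SE 0.41). SREBF1, which encodes the factor that drives fatty acid synthesis, stood at 116, 98.2 and 98.9 CPM in FA and 29.9, 45.4 and 66.8 in FK (1.14, SE 0.28). All 12 FA libraries lay above all 12 FK libraries for these 3 genes.

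DGAT2, which makes the last step of triglyceride synthesis, stood at 295, 206 and 337 CPM in FA and 28.5, 62.0 and 153 in FK (1.79, SE 0.54). GPAM, which makes the first step, stood at 175, 207 and 299 CPM in FA and 44.1, 42.7 and 131 in FK (1.64, SE 0.47). Neither overlapped in any library, and WT stood above both groups, at 465 to 577 CPM for DGAT2 and 534 to 788 for GPAM. Fat oxidation and ketone body genes held 3 of 21 higher in FA (14.3%, beside 8.24% of all genes) and 0 higher in FK, with a median of 0.06. ACAA1, a peroxisomal thiolase, stood at 919.6, 788 and 728 CPM in FA and 129, 232 and 518 in FK (1.47, SE 0.47). Beside 8.24% and 8.99% of all genes, lipoprotein genes held 3 of 20 higher in FA (15%, APOE, APOM and SCARB1) and 2 in FK (10%). The latter were ANGPTL4, and APOB, the protein of VLDL and LDL particles, at 7455, 8339 and 8789 CPM in FA and 13260, 11990 and 11500 in FK (-0.58, SE 0.42). APOB differed little among the FK sets, and no FA library reached the lowest FK library. Triglyceride storage genes held 2 of 12 higher in FA (16.7%, beside 8.24% of all genes), FITM1 and CIDEB, and 0 in FK, though the list median was -0.40. The list summed to 228, 252 and 228 CPM in FA and 475, 464 and 192 in FK.

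Bile acids are made from cholesterol in the hepatocyte and pumped into bile by canalicular transporters. Of 24 tested genes 9 were higher in FA without overlap (37.5%) and 1 in FK, with a median difference of 1.12. CYP7A1, the first and limiting enzyme of the classical route, stood at 137, 69.2 and 181 CPM in FA and 2.78, 4.35 and 47.5 in FK (2.83, SE 0.99). CYP8B1, which sets the share of cholic acid, stood at 365, 354 and 469.7 CPM in FA and 69.7, 62.0 and 269 in FK (1.57, SE 0.56). CYP27A1, of the alternative route, stood at 116, 138 and 119 CPM in FA and 22.3, 29.5 and 91.8 in FK (1.38, SE 0.49). In all 3, FK sets 1 and 2 were far below FA and FK set 3 was nearer to it. Over the list the median distance from FA was -1.89, -1.87 and -0.23 for FK sets 1, 2 and 3. The exception was ABCB4, the phospholipid exporter of the canalicular membrane, at 16.0, 17.3 and 4.77 CPM in FA and 346, 482 and 20.9 in FK (-4.48, SE 1.00). FK set 3 exceeded the highest FA set only by 20.9 against 17.3 CPM, and in WT ABCB4 stood at 25.1 to 35.3.

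Drug metabolism genes were far lower in FK sets 1 and 2 than in FA, but not in FK set 3. Of 24 tested genes 4 were higher in FA without overlap (16.7%, beside 8.24% of all genes) and 0 in FK. The median distance from FA was -3.39 and -3.28 for FK sets 1 and 2 and 0.01 for FK set 3. CES1 (identifier LOC100009551), a carboxylesterase, stood at 8199, 6299 and 7381 CPM in FA and 61.5, 162 and 5373 in FK. CYP2B4, a rabbit cytochrome P450 of xenobiotic metabolism, stood at 163, 161 and 148 CPM in FA and 25.6, 54.0 and 109.9 in FK (1.32, SE 0.50). CYP2D24 of the same superfamily stood at 144, 161 and 138 CPM in FA and 2.17, 3.75 and 79.3 in FK (2.38, SE 1.12). Cytochrome P450 genes have similar copies, so their estimated counts are uncertain.

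Further genes with a wide gap on the FA side came from several processes. PINK1, the kinase that marks damaged mitochondria for removal, stood at 214, 227 and 204 CPM in FA and 46.1, 94.2 and 73.8 in FK, 3.01-fold (1.59, SE 0.28). Its FK set 3 lay between the other FK sets, and WT stood at 245 to 286, near FA. CEBPA, a transcription factor of the mature hepatocyte, stood at 210.1, 199 and 152 CPM in FA and 16.9, 26.4 and 81.8 in FK, 4.49-fold (2.17, SE 0.58). PPP1R3B, the subunit that targets protein phosphatase 1 to glycogen, stood at 162, 214 and 217 CPM in FA and 6.79, 7.33 and 82.8 in FK (2.61, SE 0.98). FK set 3 was the highest FK set for the last pair and still below every FA library. GSTM4 (identifier LOC100358177), a glutathione transferase, stood at 182, 195 and 176 CPM in FA and 31.3, 56.6 and 90.5 in FK (1.63, SE 0.34). CBR1, a carbonyl reductase, stood at 202, 206 and 238 CPM in FA and 3.87, 3.08 and 112 in FK (2.44, SE 1.17). In both, FK set 3 was the highest FK set. CYB561A3 (identifier LOC100354227), of the cytochrome b561 family, stood at 57.8 to 78.7 CPM in FA and at 9.49, 9.60 and 30.8 in FK (2.07, SE 0.45). EMC9, a subunit of the membrane protein insertion complex, stood at 33.2, 29.7 and 29.4 CPM in FA and 10.5, 11.7 and 16.2 in FK (1.27, SE 0.23). All 12 FA libraries exceeded all 12 FK libraries for each of these genes.

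**Figure D4:**
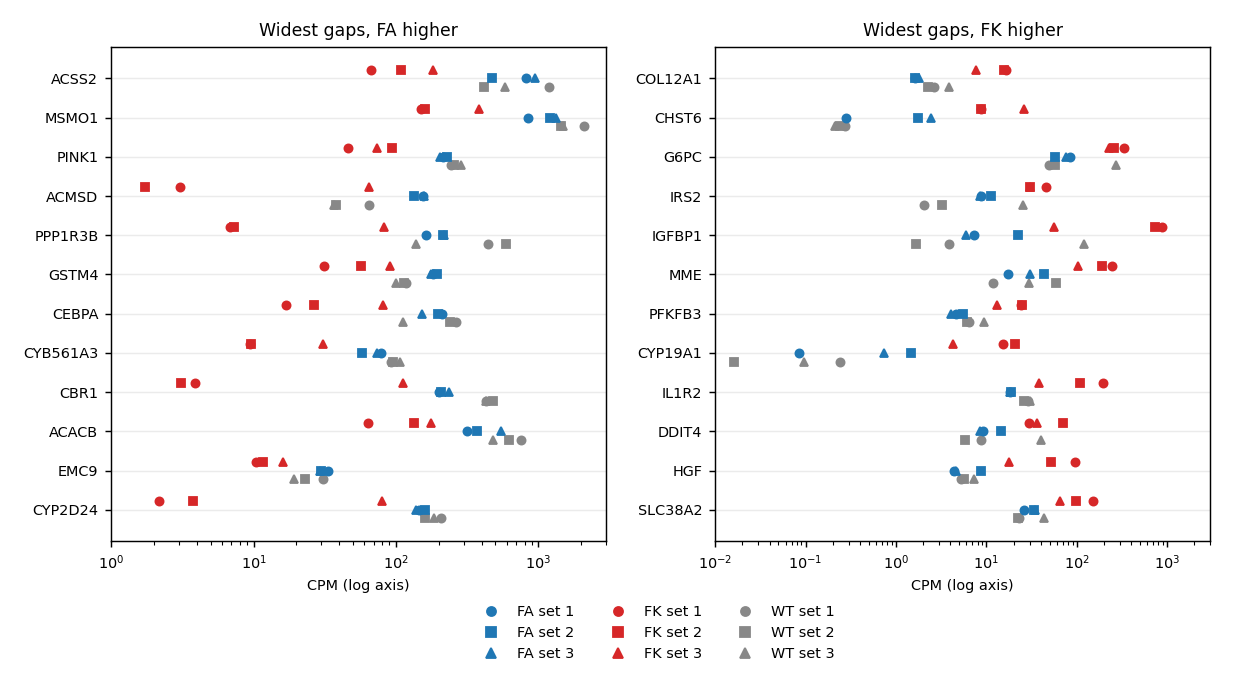
CPM on a log axis in each FA, FK and WT set for the 12 genes with the widest gap between nearest sets in each direction, 1 point per set, with IRS2 as entry LOC103349113. For genes higher in FA, such as ACSS2 and MSMO1, FK set 3 is often the FK point nearest to FA, and for G6PC, IRS2, IGFBP1 and DDIT4 1 WT set lies with FK.

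For tryptophan and kynurenine, 4 of 12 genes were higher in FA (33.3%) and 0 in FK. ACMSD, which diverts kynurenine carbon away from NAD synthesis, stood at 154, 135 and 158 CPM in FA and 3.07, 1.73 and 64.8 in FK (2.68, SE 1.15), above WT at 36.7 to 65.1 in FA. HAAO, the enzyme just before it, stood at 204, 220.3 and 214 CPM in FA and 38.3, 60.0 and 158 in FK (1.31, SE 0.48). KMO was near 0 in both groups, at 0.898, 4.24 and 0.770 CPM in FA and 0.288, 0.152 and 0.710 in FK, while WT held 52.5 to 91.5. IDO2 was the fourth member. In the urea cycle 3 of 11 genes were higher in FA (27.3%), NAGS, SLC25A13 and SLC25A15, with a list median of -0.07. NAGS makes the activator of carbamoyl phosphate synthesis and stood at 64.7, 86.5 and 58.1 CPM in FA and 12.8, 19.4 and 42.9 in FK (1.48, SE 0.41). In the breakdown of other amino acids, AGXT, AMT, FTCD, GLDC, IVD and PIPOX were higher in FA, 6 of 25 (24%, beside 8.24% of all genes). In FK 1 was higher (4%, beside 8.99%). That 1 was SDS, the serine dehydratase, at 24.3, 12.4 and 44.7 CPM in FA and 1362, 1493 and 57.6 in FK (-5.16, SE 1.07), where FK set 3 was barely outside FA.

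Folate and methionine genes lay in both directions. Of 19 folate genes, 6 were higher in FA (31.6%) and 3 in FK (15.8%), and the median was -0.50. SHMT1, the cytosolic serine hydroxymethyltransferase, stood at 702, 888 and 745 CPM in FA and 168, 163 and 554 in FK (1.40, SE 0.48). ALDH1L1, which oxidises formyl-tetrahydrofolate, stood at 1868, 1267 and 1951 CPM in FA and 545, 728 and 967 in FK (1.18, SE 0.35). Both were above every FK library in every FA library. MTHFD2, the mitochondrial enzyme prominent in dividing cells, went the other way, at 1.47, 1.55 and 1.51 CPM in FA and 52.6, 104 and 1.59 in FK (-5.12, SE 1.13). Its FK set 3 stood beside FA set 2 and far from FK sets 1 and 2. TYMS, thymidylate synthase, stood at 6.17, 4.99 and 5.52 CPM in FA and 13.6, 18.2 and 7.28 in FK (-1.23, SE 0.34). The methionine adenosyltransferases had opposite orders. MAT1A, the liver form, stood at 1279, 1787 and 1386 CPM in FA and 346, 411 and 1212 in FK (1.18, SE 0.50). MAT2A, the form of other tissues and of growing liver, stood at 15.3, 14.3 and 19.8 CPM in FA and 77, 69.5 and 23.2 in FK (-1.78, SE 0.40). GNMT, which consumes surplus S-adenosylmethionine, stood at 755, 758 and 1074 CPM in FA and 435, 621 and 516 in FK (0.72, SE 0.30), with FK set 3 between the other FK sets.

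Redox and heme genes were mixed. Of 17 genes of the NRF2 and glutathione list 4 were higher in FA (GCLC, GPX1, NQO1 and OSGIN1) and 1, HMOX1, in FK. These are 23.5% and 5.88%, beside 8.24% and 8.99% of all genes. NQO1, a quinone reductase, stood at 108, 126 and 97.0 CPM in FA and 42.2, 50.9 and 67.2 in FK (1.05, SE 0.26), with WT at 26.3 to 42.3. HMOX1, the heme oxygenase, stood at 28.4, 18.4 and 11.7 CPM in FA and 82.1, 77.6 and 32.2 in FK (-1.71, SE 0.48). ALAD, the heme synthesis enzyme that succinylacetone inhibits, stood at 301, 196 and 234 CPM in FA and 33.4, 70.8 and 166 in FK (1.43, SE 0.50). FTH1, the ferritin heavy chain, stood at 5058, 4461 and 3339 CPM in FA and 1050, 1703 and 2805 in FK (1.21, SE 0.46). For heme and iron as a whole, 2 of 23 were higher in FA and 3 in FK, near the background.

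Of 28 genes of interferon response and antigen presentation 7 were higher in FA (25%) and 0 in FK, with a median of 0.98 and FK distances of -1.44, -1.26 and -0.14. OAS2, an antiviral oligoadenylate synthetase, stood at 50.2, 54.5 and 82.0 CPM in FA and 0.783, 1.70 and 32.0 in FK (2.44, SE 1.14). OAS3 stood at 10.4, 9.91 and 16.8 CPM in FA and 1.09, 3.40 and 6.49 in FK (1.76, SE 0.56). IRF7, a factor that amplifies interferon, stood at 31.1, 17.2 and 19.9 CPM in FA and 1.76, 4.88 and 12.7 in FK (1.82, SE 0.69). Libraries did not overlap for OAS2, OAS3 or IRF7. Of 16 T and NK cell markers 7 were higher in FA (43.8%) and 0 in FK, among them LCK, the T cell kinase, at 1.46, 1.49 and 2.31 CPM in FA and 0.192, 0.622 and 0.760 in FK (1.74, SE 0.49). The summed level of these markers nevertheless overlapped, at 8.28 to 14.9 CPM in FA and 6.67 to 12.4 in FK. Of 11 B and plasma cell markers 1 was higher in FA (9.09%) and 0 in FK. Of 17 clock genes 5 were higher in FA (29.4%) and 2 in FK. PER2 stood at 9.09, 11.7 and 9.27 CPM in FA and 1.1, 1.35 and 5.84 in FK (1.86, SE 0.59). PER1, its partner in the repressor complex, stood at 17.5, 25 and 18.3 CPM in FA and 43.8, 60.1 and 28.3 in FK (-1.12, SE 0.32). The hours at which livers were taken are not in the labels.

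On the FK side, G6PC, IRS2 and IGFBP1, which insulin represses, were among the 12 genes with the widest gaps. In the liver insulin represses glucose output, IGFBP1 and IRS2 through FOXO1, and fasting releases them. Of 15 genes of gluconeogenesis and glycogen 4 were higher in FK without overlap (26.7%, beside 8.99% of all genes) and 0 in FA, though the list median was 0.14. G6PC, the glucose-6-phosphatase that releases glucose, stood at 85.0, 58.1 and 75.1 CPM in FA and 335, 256 and 224 in FK, 3.73-fold (-1.90, SE 0.62). All 12 FK libraries were above all 12 FA libraries, and FK set 3 was close to FK set 2. PCK1, the carboxykinase that commits carbon to glucose, stood at 10.8, 34.0 and 53.6 CPM in FA and 1606, 1278 and 79.6 in FK (-4.91, SE 1.45). PCK1 was thus far higher in FK sets 1 and 2 and only just outside FA in FK set 3. SLC37A4, the transporter that feeds G6PC, stood at 71.7, 81.7 and 76.5 CPM in FA and 100.3, 104 and 118 in FK (-0.49, SE 0.30), with FK set 3 the highest set. PPARGC1A, a coactivator of the fasting liver, stood at 19, 17.1 and 18.5 CPM in FA and 37.3, 29.1 and 23.5 in FK (-0.72, SE 0.23).

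Of 14 genes of the growth hormone and IGF axis 3 were higher in FK (21.4%) and 0 in FA. IGFBP1, a secreted binder of IGFs, stood at 7.28, 22.4 and 5.97 CPM in FA and 875, 729.9 and 56.1 in FK, 46.5-fold (-5.54, SE 1.76). Here the lowest FK library still exceeded the highest FA library. IRS2, an adaptor of the insulin receptor, was listed under both its own symbol and LOC103349113. The first stood at 1.47, 2.61 and 1.07 CPM in FA and 6.84, 8.95 and 4.09 in FK (-1.95, SE 0.84), and LOC103349113 at 8.80, 11.2 and 8.42 CPM in FA and 46.1, 30.0 and 30.4 in FK (-1.90, SE 0.81). The entries had the same order and no overlap in sets or libraries. IGF1R stood at 2.41, 3.43 and 3.26 CPM in FA and 50.1, 46.5 and 4.16 in FK (-3.47, SE 0.75).

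DDIT4, an inhibitor of mTORC1, stood at 9.19, 14.5 and 8.57 CPM in FA and 29.9, 69.7 and 36.7 in FK (-2.08, SE 0.70). ANGPTL4, the fasting-induced inhibitor of lipoprotein lipase, stood at 4.24, 2.83 and 6.61 CPM in FA and 42.2, 76.1 and 10.4 in FK (-3.23, SE 0.95). FK set 3 lay between the other FK sets for DDIT4 and near the FA sets for ANGPTL4. PFKFB3, which makes the activator of phosphofructokinase, stood at 4.62, 5.57 and 4.10 CPM in FA and 24.4, 24.9 and 13.3 in FK, 4.38-fold (-2.13, SE 0.30). SLC38A2, an amino acid transporter induced by amino acid shortage, stood at 25.8, 34.0 and 34.9 CPM in FA and 151, 98.7 and 65.6 in FK (-1.73, SE 0.37). For DDIT4, PFKFB3 and SLC38A2 all libraries kept the order of the groups. In glycolysis 3 of 23 genes were higher in FA (ENO3, PKLR and TPI1) and 3 in FK (HK1, PFKFB3 and PFKP).

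Several of these genes also set WT set 3 apart from the other WT sets. G6PC stood at 48.7, 57.6 and 273 CPM in WT, IGFBP1 at 3.83, 1.66 and 119, and DDIT4 at 8.74, 5.80 and 40.1. PCK1 stood at 23.1, 103 and 621 CPM in WT and LOC103349113 at 2.04, 3.24 and 25.2. WT set 3 thus lay beyond all FA sets on the FK side for G6PC, IGFBP1, DDIT4, PCK1 and IRS2, and for PCK1 so did WT set 2. Among the 526 genes higher in FK whose FK mean reached 10 CPM, WT set 3 was the only WT set on the FK side in 56, WT set 1 in 34 and WT set 2 in 20. No WT set lay on the FK side in 218 of them, and all WT sets did in 114.

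Acute phase proteins are secreted by the liver in inflammation under interleukin-6 and STAT3. Of 21 genes 5 were higher in FK without overlap (23.8%) and 0 in FA, with a median difference of -0.84 and FK distances of 1.65, 0.90 and 0.69. All 3 fibrinogen chains were among them. FGA stood at 4641, 11460 and 6264 CPM in FA and 26060, 17940 and 13220 in FK (-1.36, SE 0.56). FGB stood at 8403, 13300 and 9804 CPM in FA and 32380, 16170 and 18140 in FK (-1.08, SE 0.53). FGG stood at 6090, 10140 and 6611 CPM in FA and 26890, 14870 and 12710 in FK (-1.25, SE 0.52). FA set 2 was the highest FA set for each chain, and FK set 1 the highest FK set. LBP, which hands bacterial lipopolysaccharide to CD14, stood at 150.2, 1172 and 289 CPM in FA and 3219, 2995 and 1241 in FK (-2.21, SE 0.75). CRP stood at 797, 9527 and 2126 CPM in FA and 10020, 10340 and 14200 in FK (-1.47, SE 0.86). For LBP and CRP the gap between groups was that between FA set 2 and the lowest FK set, and libraries overlapped. Of 31 complement and coagulation genes 0 were higher in FA and 1, KNG1, in FK.

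IL1R2, the decoy receptor for interleukin-1, stood at 18.3, 18.8 and 18.4 CPM in FA and 193, 107 and 38.7 in FK, 6.12-fold (-2.61, SE 0.48). The 3 FA sets lay within 1 CPM of each other, and FK set 1 was the highest of the 6. HGF, the hepatocyte growth factor made by stellate and endothelial cells, stood at 4.39, 8.81 and 4.65 CPM in FA and 96.2, 52.1 and 17.8 in FK, 9.31-fold (-3.22, SE 0.57). MME, the membrane peptidase neprilysin, stood at 17.5, 43.2 and 30.4 CPM in FA and 246, 188 and 103 in FK (-2.56, SE 0.61). CYP19A1, the aromatase that makes estrogens, stood at 0.0842, 1.47 and 0.736 CPM in FA and 15.2, 20.8 and 4.27 in FK (-4.14, SE 1.05). No library of one group reached the other for these 4 genes, and FK set 3 was the lowest FK set in each.

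Of 30 collagen and stellate cell genes 7 were higher in FK (23.3%) and 0 in FA, with a median of -0.77 and FK distances of 0.72, 1.01 and 0.15. COL12A1, a fibril-associated collagen, had the widest gap among genes higher in FK with a symbol and at least 10 CPM. Its level stood at 1.63, 1.64 and 1.79 CPM in FA and 16.4, 15.7 and 7.75 in FK, 7.89-fold (-2.98, SE 0.35), with WT at 2.24 to 3.89. PDGFRA, a receptor of stellate cells and fibroblasts, stood at 8.24, 10.4 and 9.67 CPM in FA and 19.4, 14.7 and 13.4 in FK (-0.75, SE 0.23). LOX, which crosslinks collagen, stood at 1.26, 1.07 and 1.1 CPM in FA and 9.38, 6.63 and 1.82 in FK (-2.37, SE 0.53). COL5A2, COL6A3, PDGFRB, VIM and HGF were the other members. Of 15 Kupffer cell and macrophage markers 4 were higher in FK (26.7%), CD163, CSF1R, TIMD4 and VSIG4, and the list summed to 596 to 722 CPM in FA and 802 to 1310 in FK. VSIG4, a complement receptor of Kupffer cells, stood at 28.5, 33.4 and 26.4 CPM in FA and 108, 60.9 and 49.3 in FK (-1.30, SE 0.29). CD163, a scavenger receptor for hemoglobin, stood at 0.309, 0.373 and 1.25 CPM in FA and 31.0, 27.9 and 1.30 in FK, where FK set 3 stood beside FA set 3 and far from the other FK sets. Of 14 endothelial markers 3 were higher in FK (21.4%, beside 8.99% of all genes), KDR, TIE1 and VWF, and 0 in FA.

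Cell division and fetal genes separated FK sets 1 and 2 from FA but hardly FK set 3. Of 30 mitosis and spindle genes 4 were higher in FK without overlap (13.3%), near the 8.99% of all genes. The median distance from FA was 2.96, 4.12 and -0.02 for FK sets 1, 2 and 3. KIF20A, a kinesin of cytokinesis, stood at 0.842, 0.778 and 0.753 CPM in FA and 12.9, 25.6 and 1.08 in FK. Of 28 DNA replication genes 4 were higher in FK (14.3%, also near 8.99%), with FK distances of 1.40, 2.25 and -0.10. BRCA1, which repairs breaks and crosslinks during replication, stood at 1.14, 0.875 and 1.14 CPM in FA and 3.87, 4.94 and 1.76 in FK (-1.75, SE 0.46). GPC3, an oncofetal proteoglycan of liver tumours and fetal liver, stood at 53.8, 32.7 and 45.6 CPM in FA and 159.9, 208 and 67.6 in FK (-1.72, SE 0.41), against 1.98 to 3.22 in WT. IGF2BP3, which binds RNA in fetal tissue, stood at 0.351, 0.535 and 0.469 CPM in FA and 10.9, 17.2 and 0.625 in FK. GPC3 was therefore above FA in every FK set, while IGF2BP3 and KIF20A were at FA-like levels in FK set 3. The erythroid list, measured in the same sets, had FK distances of 4.05, 5.45 and -0.06, and the part of erythroid cells in these counts was not tested.

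MYC, a growth factor-induced transcription factor, stood at 6.24, 6.48 and 3.58 CPM in FA and 38.0, 48.8 and 8.70 in FK (-2.55, SE 0.85). FOSL2, of the AP-1 family, stood at 5.85, 9.20 and 7.43 CPM in FA and 29.5, 22.3 and 13.6 in FK (-1.54, SE 0.38). Libraries did not overlap for either, whereas FOS and FOSB of the same list of 17 were higher in FA. Lists near or below the background in both directions were complement and coagulation, the respiratory chain (1 of 26 higher in FA, 0 in FK), the p53 response (0 and 2 of 21), inflammatory signals (1 and 2 of 21), integrated stress and serine synthesis (1 and 2 of 20), and hepatocyte transcription factors (2 and 0 of 28). The unfolded protein response of the endoplasmic reticulum had 0 of 18 in both directions. Lobule zonation had 2 and 3 of 23, and crosslink repair 2 and 3 of 20.

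**Figure D5:**
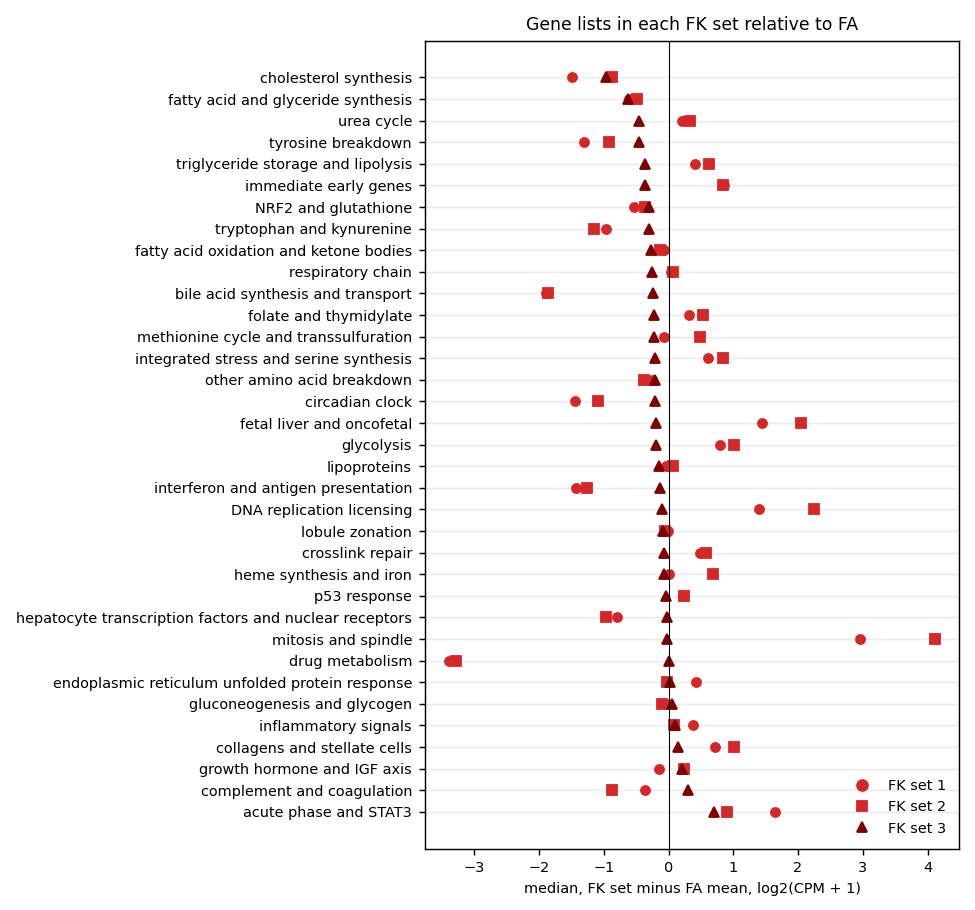
Median distance of each FK set from the FA mean on log2(CPM + 1) over the tested members of each gene list, 1 point per FK set, with the line at 0 for the FA mean. FK set 3 lies with the other FK sets for cholesterol and fatty acid synthesis and near 0 for mitosis and drug metabolism, where FK sets 1 and 2 reach 4.12 and -3.39.

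Some genes differed in FK set 3 at least as much as in the mean of the other FK sets. Those counted had a symbol, and their higher group reached a mean of 10 CPM. Of this kind 73 were higher in FA and 50 in FK. Without these limits the numbers were 135 of the 1231 genes higher in FA without overlap and 168 of the 1343 higher in FK. The examples were chosen after their values were seen. CDC42EP2, an effector of the small GTPase CDC42, stood at 22.2, 25.1 and 18.3 CPM in FA and 13, 13.5 and 12.6 in FK (0.74, SE 0.22). APMAP, a membrane hydrolase of fat cells, stood at 189.8, 179.8 and 179.9 CPM in FA and 105, 139 and 118 in FK (0.60, SE 0.19). FK sets agreed closely for CDC42EP2, and libraries did not overlap for either. On the other side, CHST6 (identifier LOC100351319), a sulfotransferase of keratan sulfate, stood at 0.281, 1.77 and 2.44 CPM in FA and 8.74, 8.63 and 26.1 in FK (-3.28, SE 0.75), with WT at 0.211 to 0.272. FBXO32, a ubiquitin ligase induced in fasted muscle, stood at 6.95, 8.57 and 5.04 CPM in FA and 16.1, 13.9 and 17.6 in FK (-1.21, SE 0.41). FK set 3 was the highest set for both. GNPTAB, which tags lysosomal enzymes with mannose 6-phosphate, stood at 13.7, 12.7 and 11.8 CPM in FA and 19.4, 18.9 and 19.4 in FK, 1.52-fold (-0.60, SE 0.15). NCOA7 stood at 6.96, 7.70 and 7.16 CPM in FA and 14.4, 11.9 and 14.0 in FK (-0.88, SE 0.20). SOWAHC stood at 18.4, 18.6 and 15 CPM in FA and 27.1, 27.4 and 39.8 in FK (-0.86, SE 0.20). The FK values of GNPTAB lay within 1 CPM of each other. TSC22D1 stood at 22.9, 46.8 and 34.9 CPM in FA and 89.1, 62.6 and 132 in FK (-1.44, SE 0.52), and its WT set 3, at 146, lay with FK. For CHST6, SOWAHC and TSC22D1 the highest of all 6 values was that of FK set 3.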

How the data were processed

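RNA was sequenced from rabbit liver, and the submitters' processing notes name Salmon 0.14.1, with no role given. The deposited table, per the file headers, holds estimated counts, whole numbers as the authors deposited them, for 23394 genes and 36 libraries. Neither build nor strand setting is stated in these sources, so overlapping and antisense genes are uncertain. Of 8019 genes with only a LOC identifier, 765 took a symbol from the RefSeq table of assembly mOryCun1.1. No sequences are printed. Some genes of the lists count in list totals but are not reported here.

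Titles gave the groups. Libraries of a set were summed, since no label makes them separate animals. A single edgeR 4.0.16 model under R 4.3.3 took in all 9 sets (TMM, filterByExpr, quasi-likelihood F tests, Benjamini-Hochberg adjustment), which kept 14939 genes, with a biological coefficient of variation of 45.2%. Library totals of 11.7 to 22.5 M counts set the counting error, which was not compared with that spread gene by gene. For genes at low CPM, such as KMO at 0.152 CPM in FK set 2, few counts were read and the counting error is not small. In data simulated for FA and FK with 14753 genes, the fit called 65 of 99 changes of 8-fold, 2 of 98 of 2-fold and 3 unchanged genes of 14556. Each gene was drawn on its own, so no simulated set stood apart across many genes as FK set 3 does. Overlap was judged on the TMM-scaled CPM of the sets, and distances and gaps between nearest sets on log2(CPM + 1).

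The 36 gene lists (780 genes, 677 tested; the mitochondrially encoded list had 0 matched) and 10 marker lists are described by counts and medians. Named were FAH and its pathway, the 12 genes per direction with the widest gap, a symbol and at least 10 CPM, and up to 3 non-overlapping members per list by gap, or the member with the smallest p where a list had none. Not all of the latter are described, and other genes with values were chosen after these were seen. The members and lists were chosen with earlier results of these data known. Same-numbered sets were not paired: their deviations correlated at -0.002, 0.139 and 0.14. Alternatives were DESeq2 1.42.0, RLE size factors, other filters, a fit of FA and FK alone, the replicate block, library 1 of each set, a 1.5-fold minimum, single libraries and each set left out. Figures used Python 3.11.15 and matplotlib 3.10.9.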

Additional observations from a re-analysis of the deposited data

How the results depend on the processing

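The count of genes called was 0 with edgeR under every alternative except leaving out FK set 3, and 1695 with DESeq2. Leaving out each set in turn gave 0 to 5324 calls, the highest without FK set 3. FA lay above FK without overlap in 1231 genes, and in 1281 to 4281 with a set left out. FK lay above FA in 1343, and in 1354 to 4497 with a set left out. Fewer sets make a lack of overlap easier by construction. Without FA set 2 the counts were 2521 and 2514, and without FA set 3 they were 1979 and 1975. Over 12 against 12 libraries, they were 230 and 124.

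The FAH difference was 0.72 with DESeq2 (adjusted p = 0.0143) and 0.60 to 0.84 with a set left out. It passed the edgeR threshold only without FK set 3 (0.75, adjusted p = 0.0336), over adjusted p of 0.0143 to 0.309 in all alternatives. The replicate block by set number gave 0 calls and an FAH difference of 0.71. Of 110 named genes, 93 passed the edgeR threshold without FK set 3, where 5324 of all 15453 genes did. With DESeq2 73 passed, beside 1695 of 14939 genes, and some named genes had no DESeq2 adjusted p. None changed direction under these alternatives. Most were named because their sets did not overlap, so their direction and much of these counts were fixed in advance. List medians kept their sign in 31 to 35 of 35 lists. The simulation called 2 of 98 changes of 2-fold, but it held no set that stood apart across many genes. Its share of changes called therefore does not give the power in these data. The 45.2% variation between sets includes the distance of FK set 3 from the other FK sets.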
